A study of Sus scrofa with 2 samples.

Results

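The barcodes described here lie above 4500 detected genes or 30000 UMIs, have at most 10% of their UMIs on the 13 mitochondrial protein genes, and hold fewer than 5 UMIs in all of the division genes TOP2A, CDK1, UBE2C and CDC20. A UMI is a molecular tag that marks 1 captured RNA molecule, and a barcode marks 1 droplet. The rule found 614 of the 9239 deposited barcodes. The fresh library held 474 of them among 4379 barcodes, or 10.8% (exact binomial 95% interval 9.92 to 11.8), and the cryopreserved library held 140 among 4860, or 2.88% (2.43 to 3.39). They carried 27.5% of the 53271738 UMIs of the fresh library and 8.10% of the 42217632 UMIs of the cryopreserved library. These deep barcodes were chosen by their own genes and UMIs, so both quantities are given only as a description.

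The study compared dissociated cells of dorsal pig skin that were used fresh with cells that were frozen in medium with serum and DMSO and then thawed. The animals were healthy male farm pigs described as young, with no genotype, strain or exact age given, and the fresh group is labelled as having no treatment. Both groups were digested with a skin dissociation kit, sorted to remove dead cells and scatter doublets, and captured with a droplet kit that reads the 3′ ends of RNA. Each condition had 1 library, the labels do not say whether both came from the same animal or how many animals were pooled, and the protocol text on the fresh sample also describes freezing. No test between the conditions was therefore possible, and barcodes of 1 library are not replicates. All intervals cover counting error only.

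Skin is built of an epidermis of keratinocytes, joined by keratins and desmosomes, over a dermis in which fibroblasts make collagen and other matrix. Blood and lymphatic endothelium, the mural cells that wrap vessels, macrophages, Langerhans cells, T cells and mast cells lie among them. In droplet assays a very high gene or UMI count can come from a large or very active cell, from a dividing cell, or from 2 cells caught in 1 droplet, and the last of these joins the RNA of unlike lineages only when the cells differ.

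The comparison group, called reference barcodes below, met the same mitochondrial and division limits but lay under both maxima. It held 2714 fresh and 4092 cryopreserved barcodes. The deep barcodes had a median of 29109.5 UMIs (range 15775 to 110587) in the fresh library and 22967 (14137 to 44932) in the cryopreserved library, beside 10919 and 7827.5 in reference barcodes. Their median number of genes was 4894 and 4871, beside 3055 and 2602.5. The gene maximum did most of the selecting, since 253 fresh and 118 cryopreserved barcodes passed only that limit, 7 and 1 passed only the UMI limit, and 214 and 21 passed both. In the plot of genes against UMIs the cryopreserved deep barcodes sat mostly below 30000 UMIs.

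**Figure D1:**
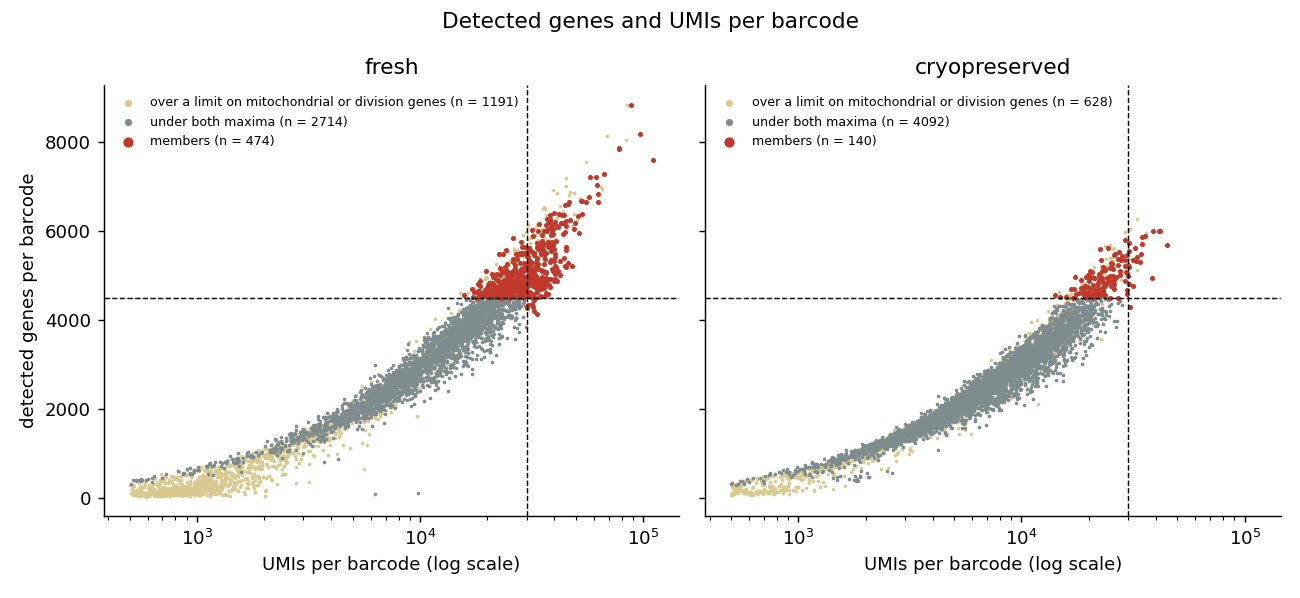
Detected genes against UMIs per barcode, in each library, for the deep nondividing barcodes (members), the reference barcodes and those outside the mitochondrial or division limit, with lines at both maxima. In the cryopreserved library 118 of 140 deep barcodes lie above the gene line only, against 253 of 474 in the fresh library.

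No barcode over either maximum was above the mitochondrial limit. This was 0 of 600 in the fresh library, which allows a share of up to 0.5%, and 0 of 191 in the cryopreserved library, which allows up to 1.57%. Below both maxima, 26.6% (25.2 to 28.0) of fresh and 9.55% (8.72 to 10.4) of cryopreserved barcodes were above that limit. The mitochondrial limit thus removed none of the deep barcodes. The division limit removed 126 fresh and 51 cryopreserved ones, or 21.0% (17.8 to 24.5) and 26.7% (20.6 to 33.6) of those over either maximum. Among the barcodes below both maxima that passed the mitochondrial limit, the shares were 2.20% of 2775 and 3.10% of 4223. The division limit is a fixed number of UMIs counted without thinning, so a deeper barcode reaches it more readily. The part of depth in these shares was not tested.

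Close to the maxima the nearest barcodes on either side were alike in depth. In the fresh library a keratinocyte-like barcode with 4502 genes was taken and an endothelial-like barcode with 4499 genes was not, while a myeloid-like barcode with 30016 UMIs was taken and another with 29960 was not. In the cryopreserved library fibroblast-like barcodes with 4501 genes or 30041 UMIs were taken, and fibroblast-like barcodes with 4499 genes or 28329 UMIs were not. The 2 libraries shared 6 barcode sequences. Of these, 1 was a deep barcode in the fresh library (21539 UMIs) and a reference barcode in the cryopreserved library (5056 UMIs), fibroblast-like in both, and no sequence was a deep barcode in both.

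Keratinocyte-like and fibroblast-like cells made up most of the deep barcodes. Classes were built from reference barcodes alone and each barcode, deep or reference, took the class of most of its 30 nearest other reference barcodes. Fibroblast-like barcodes were 254 of 474 fresh deep barcodes, 53.6% (49.0 to 58.1), beside 41.9% (40.1 to 43.8) of reference barcodes, and 63 of 140 cryopreserved ones, 45.0% (36.6 to 53.6), beside 36.1% (34.6 to 37.6). Keratinocyte-like barcodes were 179, or 37.8% (33.4 to 42.3), beside 18.7% (17.2 to 20.2) in the fresh library, and 56, or 40% (31.8 to 48.6), beside 24.1% (22.8 to 25.5) in the cryopreserved library. Both epidermal and dermal classes thus took a larger share above the maxima than below, and for the keratinocyte-like class the intervals did not meet in either library. For the fibroblast-like class they met in the cryopreserved library only.

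Vascular and immune classes took smaller shares. Mural-like cells were 1.48% of fresh and 1.43% of cryopreserved deep barcodes, beside 9.10% and 9.02% of reference barcodes. Endothelial-like cells were 3.59% and 3.57%, beside 11.05% and 9.85%, and T/NK-like cells were 0.633% and 1.43%, beside 4.79% and 5.65%. Mast-like cells were 0 of 474 and 0 of 140 deep barcodes, which allows shares of up to 0.633% and 2.14% as 3 counts of the total, or 0.775% and 2.60% by the exact interval, beside 2.54% and 2.004% of reference barcodes. Myeloid-like cells were 2.53% (1.31 to 4.38) above and 9.54% (8.46 to 10.7) below the maxima in the fresh library. Among cryopreserved barcodes they were 8.57% (4.51 to 14.5) above and 10.9% (9.96 to 11.9) below, and those intervals overlap, as do the cryopreserved ones of the T/NK-like and mast-like classes. The reference clusters of mural-like and endothelial-like cells had median UMI counts of 5040 to 6109 and the mast-like cluster 2620, against 8270 to 15144 for the fibroblast-like clusters and 9756.5 to 12969 for the keratinocyte-like ones. The myeloid-like clusters, at 10895.5, 8225 and 7733, lay in or just under the fibroblast-like range. The part of depth in the class shares was not tested.

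**Figure D2:**
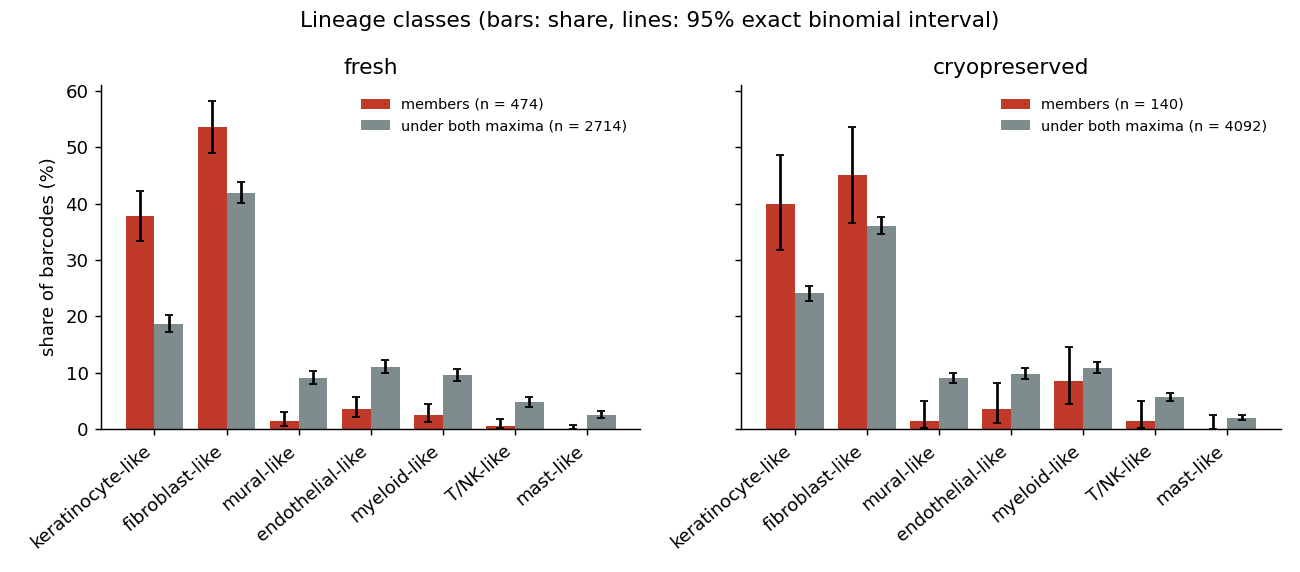
Share of deep nondividing barcodes and of reference barcodes in each lineage class, by library, with exact binomial 95% intervals. Keratinocyte-like and fibroblast-like classes take larger shares of the deep barcodes, 37.8% and 53.6% in the fresh library, and the vascular, T/NK-like and mast-like classes take smaller ones.

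The same contrast showed as the share of each class that lay above a maximum. In the fresh library this was 26.1% (22.8 to 29.6) of keratinocyte-like, 18.2% (16.3 to 20.4) of fibroblast-like, 5.36% of endothelial-like, 4.43% of myeloid-like, 2.76% of mural-like and 2.26% of T/NK-like barcodes. In the cryopreserved library the shares were 5.37% (4.08 to 6.92) for keratinocyte-like and 4.09% (3.16 to 5.20) for fibroblast-like barcodes, 2.62% for myeloid-like, and 1.23%, 0.858% and 0.539% for endothelial-like, T/NK-like and mural-like ones. Epidermal and fibroblast classes led in both libraries, at lower shares in the shallower cryopreserved one.

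The clusters of reference barcodes, 25 in all, contributed to the deep barcodes unevenly. Deep and reference barcodes alike were counted with the cluster held by most of their 30 nearest reference barcodes, so the totals behind these shares differ somewhat from the sizes of the clusters as first drawn. The fibroblast-like cluster with CTHRC1 and ASPN among its leading genes, both genes of secreted matrix proteins, placed 101 of its fresh barcodes above a maximum, 35.2% (29.7 to 41.0), but 11, or 3.91%, of its cryopreserved ones. The cluster led by GFPT2, NTRK2 and PTX3 placed 71, or 28.2% (22.7 to 34.2), and 28, or 9.27% (6.25 to 13.1). A smaller cluster with DPEP1, ITGA8 and COL11A1 among its leading genes placed 13, or 21.0% (11.7 to 33.2), and 10, or 15.4% (7.63 to 26.5). The latter was the highest cryopreserved share of the fibroblast-like clusters. By contrast, the cluster led by CCL19, a chemokine that draws lymphocytes and dendritic cells, placed 4, or 2.30%, of its fresh barcodes and 0 of 138 of its cryopreserved ones. A cluster with MYOC, FGF10 and C4A placed 6, or 3.87%, and 5, or 1.85%. The fibroblast-like deep barcodes were therefore drawn unevenly from the fibroblast-like clusters. The cluster that gave the most deep barcodes differed between the libraries, as did the cluster with the highest share.

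In the fresh library the keratinocyte-like clusters were closer to each other than the fibroblast-like clusters above. The suprabasal cluster led by KRT1 and KRT10, keratins of cells that have left the basal layer, placed 46, or 35.1% (27.0 to 43.9), of its fresh and 17, or 8.95%, of its cryopreserved barcodes above a maximum. The cluster led by SPRP, FGFBP1 and SERPINB2 placed 31, or 32.0%, and 9, or 5.14%. The cluster led by the basal keratin gene KRT15 placed 41, or 25.3%, and 11, or 5.34%, and the cluster led by LAMA3, a chain of the basement membrane protein laminin 332, placed 39, or 22.7%, and 3, or 1.39%. The cluster with SOX9 and PTHLH placed 22, or 17.7%, and 16, or 6.25%. Every keratinocyte-like cluster was represented above the maxima in both libraries.

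The 3 markers used to check the label were COL1A1 for fibroblasts, KRT5 for keratinocytes and SPP1, the gene of the secreted protein osteopontin. On the pig assembly Sscrofa11.1, COL1A1, which encodes a chain of type I collagen, lies at chr12:26379087-26397180. KRT5, a keratin of basal keratinocytes, lies at chr5:17862047-17868397, and SPP1 at chr8:131077786-131085334, by the RefSeq gene annotation. COL1A1 UMIs in fibroblast-like deep barcodes ranged from 43 to 7392 with a median of 2390 in the fresh library, and from 177 to 5883 with a median of 1074 in the cryopreserved library. KRT5 UMIs in keratinocyte-like deep barcodes ranged from 0 to 1408 with a median of 393, and from 2 to 1105 with a median of 294. Every fibroblast-like deep barcode held COL1A1, and every keratinocyte-like one except 4 fresh ones held KRT5. The medians in reference barcodes of the same classes were 297 and 310 for COL1A1 and 175 and 106 for KRT5, at lower depth.

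SPP1 was found in few barcodes. It had a UMI in 10 of 474 fresh and 11 of 140 cryopreserved deep barcodes, with 125 and 2750 UMIs in all. Among the shallower reference barcodes it had a UMI in 60 of 2714 fresh and 92 of 4092 cryopreserved ones. One cryopreserved myeloid-like barcode of 29751 UMIs and 4677 genes held 2329 SPP1 UMIs, or 84.7% of the cryopreserved total, while all 4092 cryopreserved reference barcodes together held 576. The next highest values were 398 UMIs in another cryopreserved deep barcode and 99 in a fresh one, and the highest reference values were 111 in the cryopreserved and 49 in the fresh library. These barcodes were nearest to the cluster of C4BPA, CD209 and C1Q genes, which are known from macrophages. The barcode with 2329 SPP1 UMIs held 60 of C1QA and 165 of CCL5, and its T/NK panel was higher than its myeloid panel. SPP1 was thus high in a few myeloid-like deep barcodes and not in the deep barcodes as a whole.

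The label nondividing was checked with 12 division genes that the rule did not use, among them CENPF, BIRC5, CCNB1 and PLK1. Every barcode was thinned to 5000 UMIs so that depth was equal, which left out 382 fresh and 1076 cryopreserved reference barcodes and no deep barcode. At least 5 UMIs of these genes were found in 2.53% of fresh and 4.29% of cryopreserved deep barcodes, beside 2.70% and 2.62% of reference barcodes, and in 8.93% of cryopreserved keratinocyte-like deep barcodes beside 2.66%. Thinning to 10000 UMIs kept every deep barcode but only 1476 fresh and 1412 cryopreserved reference barcodes. At that depth the shares were 10.3% beside 9.15% for fresh and 20% beside 10.4% for cryopreserved barcodes. Among the keratinocyte-like ones they were 15.1% beside 12.3% and 35.7% beside 13.01%. The summed level of the 12 genes was 228 CPM (UMIs scaled to a total of 1000000, interval 209 to 248) beside 221 (213 to 230) in the fresh library, and 274 (237 to 316) beside 234 (226 to 242) in the cryopreserved library. In keratinocyte-like cryopreserved deep barcodes it was 407 (336 to 489) beside 258 (243 to 273), and the interval of the fibroblast-like ones, 184 (140 to 238), held the reference value of 179. In either class NUSAP1 and HMGB2 alone of these genes reached 200 UMIs in each library. With the limit of 5 UMIs set on the 16 genes of both lists together, 174 fresh and 59 cryopreserved barcodes would remain, a count taken without thinning. The label nondividing therefore refers to the 4 genes of the rule alone. For the other 12 genes the cryopreserved keratinocyte-like deep barcodes stood above their reference in summed level.

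Genes of DNA replication, which are used in S phase ahead of mitosis, stood higher in summed level. The summed level of 13 replication genes, among them PCNA, the sliding clamp of DNA polymerase, and the MCM helicase subunits, was 235 CPM (216 to 255) in fresh deep barcodes beside 163 (155 to 170), and 389 (344 to 438) beside 201 (194 to 209) in cryopreserved ones. In the keratinocyte-like class it was 403 (363 to 447) beside 232 (214 to 252), and 596 (509 to 694) beside 283 (268 to 299). Fibroblast-like deep barcodes held 132 (113 to 154) beside 116 (107 to 125) in the fresh library, where the intervals overlap, and 248 (196 to 309) beside 139.5 (131 to 149) in the cryopreserved library. Mixed barcodes were kept in these sums, and 1 cryopreserved fibroblast-like deep barcode held 16 of the 78 thinned UMIs. Any such UMI was found in 49.2% (36.4 to 62.1) of that group, beside 46.0% (43.2 to 48.7) of its reference. The share of barcodes with any thinned UMI of these genes was 47.9% beside 48.3% in fresh and 62.1% beside 53.9% in cryopreserved barcodes, and 68.2% beside 65.03% in fresh keratinocyte-like ones. At least 5 thinned UMIs of these genes were found in 24 of 179 fresh keratinocyte-like deep barcodes, 13.4%, beside 1.23% of reference ones, and in 18 of 56 cryopreserved ones, 32.1%, beside 4.88%. Some keratinocyte-like deep barcodes thus held many replication transcripts while passing the limit on 4 mitotic genes.

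Mixed-lineage expression was measured on 7 marker panels. The level of a panel in a barcode is its share of the 5000 thinned UMIs divided by the median share in reference barcodes of that class in the same library, so that 1 is the level of a typical cell of the class. A barcode was called mixed when a panel other than its highest reached a level of 0.2 with at least 5 UMIs. In the cryopreserved library 35 of 140 deep barcodes were mixed, 25% (18.1 to 33.0), beside 240 of 3016 reference barcodes, 7.96% (7.02 to 8.98). In the fresh library 43 of 474 were mixed, 9.07% (6.64 to 12.02), beside 206 of 2332, 8.83% (7.71 to 10.1). The difference was 17.0 points (10.5 to 24.9) in the cryopreserved library and 0.238 points (-2.34 to 3.36) in the fresh library, where deep and reference barcodes could not be told apart by this measure. The cryopreserved difference was 8.15 points with a level of 0.3 and 4.99 with 0.5. A non-negative fit, which did not use the panels, described each barcode by the mean profiles of the 7 reference classes. It ran over the genes most specific to each class in these data. With a second share of at least 0.2, that fit gave 2.58 points (0.345 to 5.41) for fresh barcodes.

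A large part of the mixed reference barcodes was myeloid-like. Of the myeloid-like reference barcodes 103 of 221 fresh and 153 of 355 cryopreserved ones were called mixed, many of them through the myeloid and T/NK panels together. Where the myeloid panel was highest and the T/NK panel came next, in 84 reference barcodes of both libraries, CCL5, a chemokine gene listed in the T/NK panel, gave 98.6% of the T/NK-panel UMIs. When the immune panels were joined to 1 compartment and CCL5 and PECAM1 were left out, a definition set after seeing the data, the mixed share in reference barcodes was 42 of 2332, 1.80% (1.30 to 2.43), and 64 of 3016, 2.12% (1.64 to 2.70). By that definition the mixed deep barcodes were 34 of 474, 7.17% (5.02 to 9.88), and 31 of 140, 22.1% (15.6 to 29.9). With 5 compartments the difference was therefore 5.37 points (3.28 to 8.10) for fresh and 20.02 points for cryopreserved barcodes, so the fresh result depended on how the panels were drawn.

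The lineages that met most often were fibroblast and keratinocyte. Over the 5 compartments, 15 of the 34 mixed fresh and 9 of the 31 mixed cryopreserved deep barcodes paired the fibroblast and keratinocyte panels, against 1 of 42 and 6 of 64 mixed reference barcodes. Endothelial and immune panels were paired in 23 of 42 fresh and 20 of 64 cryopreserved mixed reference barcodes, and in 2 of 34 and 0 of 31 mixed deep ones. Further pairs in the deep barcodes included endothelial with fibroblast (5 fresh and 2 cryopreserved), fibroblast with mural (2 and 6), immune with keratinocyte (2 and 4), fibroblast with immune (2 and 4) and keratinocyte with mural (2 and 3).

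In the 15 fresh barcodes with both fibroblast and keratinocyte panels, COL1A1 ranged from 123 to 3948 UMIs with a median of 568, and KRT5 from 6 to 852 with a median of 257. In the 9 cryopreserved ones COL1A1 ranged from 157 to 1839 with a median of 568, and KRT5 from 1 to 481 with a median of 98. DCN, which encodes the matrix proteoglycan decorin, and DSP, which encodes the desmosomal protein desmoplakin, had UMIs in all of them. Where the keratinocyte panel was highest and the fibroblast panel came next, COL1A1, COL3A1 and COL1A2 gave 37.4%, 26.9% and 22.8% of the fibroblast-panel UMIs, and each was present in all 14 barcodes of that kind. The second lineage in these barcodes was thus carried by several genes.

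The barcodes that show the range of these cases are printed below in lower case, since no stretch of a barcode is singled out.
Fresh, most UMIs: tatacctagggagggt
Fresh, highest second level over 5 compartments: ttacgcctcataagga
Fresh, keratinocyte-like with a higher fibroblast panel: ttgacccgtagaatac
Cryopreserved, most UMIs: cggagaatcactacga
Cryopreserved, highest second level over 5 compartments: tcaatctcacccataa
Cryopreserved, keratinocyte-like with a higher fibroblast panel: gtggagacagttgaaa

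The deepest barcode of each library was not mixed. The fresh one, with 110587 UMIs and 7613 genes, was keratinocyte-like and held 3526 KRT1 and 3320 KRT10 UMIs beside 6 of COL1A1. The cryopreserved one, with 44932 UMIs, was fibroblast-like and held 5545 COL1A1 and 5256 COL1A2 UMIs and none of KRT5. The barcodes with the highest second levels were less deep. The fresh one had 30304 UMIs, with 707 KRT10 and 378 KRT1 UMIs beside 725 of COL3A1 and 568 of COL1A1, at levels of 1.77 for the keratinocyte and 0.920 for the fibroblast panel. The cryopreserved one had 21982 UMIs, with 360 KRT5 and 247 KRT10 UMIs beside 101 of C1QA, a complement gene of macrophages, at levels of 1.76 for the keratinocyte and 1.72 for the myeloid panel. Both of these barcodes held close to or above a typical cell's share of each of their lineages.

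The direct count of barcodes with at least 5 thinned UMIs of both COL1A1 and KRT5 uses no panel. Such barcodes were 21 of 474 fresh deep barcodes, 4.43% (2.76 to 6.69), beside 1 of 2332 reference barcodes, 0.0429%, and 15 of 140 cryopreserved ones, 10.7% (6.12 to 17.1), beside 16 of 3016, 0.531% (0.304 to 0.860). Without thinning the shares were 8.44% beside 0.368%, and 12.1% beside 0.489%. At 1 UMI the gap was small, 19.8% beside 12.9% and 22.1% beside 15.1%. KRT5 had a thinned UMI in 9.30% of fresh and 11.03% of cryopreserved endothelial-like reference barcodes, a class that should lack the gene, and in 10.8% and 10.3% of fibroblast-like reference ones, all at 5000 UMIs. The plot of COL1A1 against KRT5 shows the deep barcodes that stand away from both axes.

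**Figure D3:**
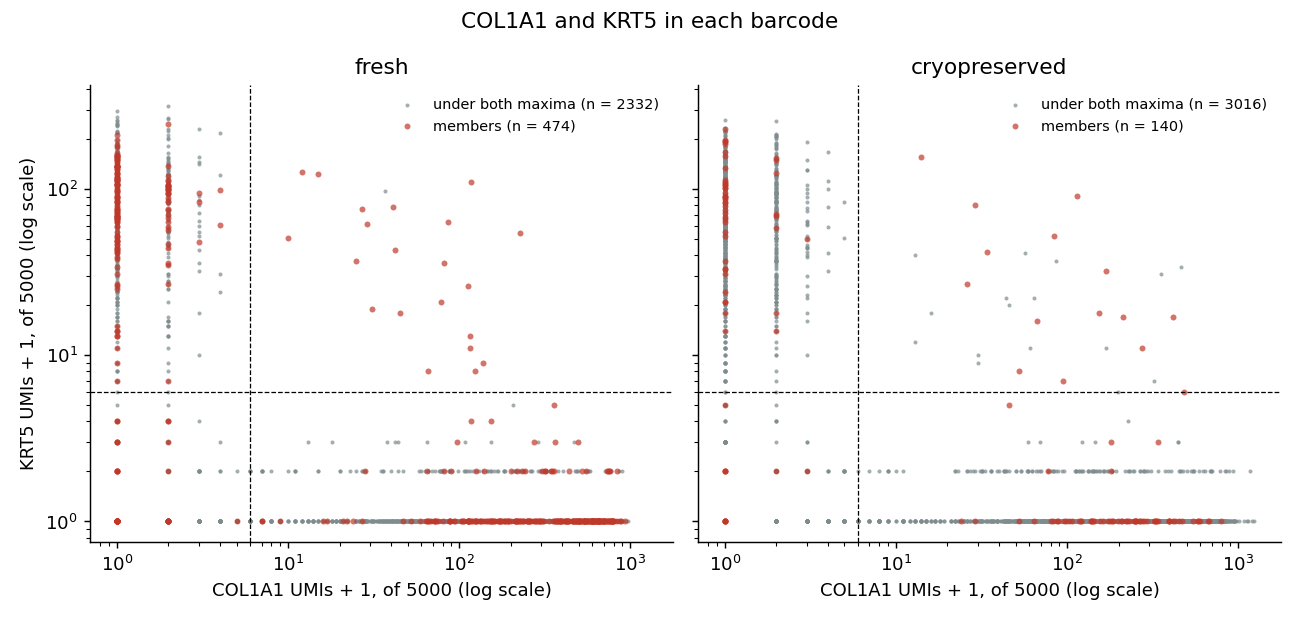
COL1A1 against KRT5 UMIs per barcode after thinning to 5000 UMIs, in each library, for deep nondividing and reference barcodes. Of the deep barcodes, 21 fresh and 15 cryopreserved ones have at least 5 UMIs of both genes, against 1 and 16 of the reference barcodes.

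Mixed calls were unevenly spread over the classes. Over the 7 panels, keratinocyte-like deep barcodes were mixed in 15 of 179 fresh cases, 8.38% (4.77 to 13.4), beside 4 of 489, 0.818% (0.223 to 2.08), and in 9 of 56 cryopreserved cases, 16.1% (7.62 to 28.3), beside 10 of 901, 1.11%. Fibroblast-like deep barcodes were mixed in 8 of 254 fresh cases, 3.15%, beside 3.32%, and in 8 of 63 cryopreserved cases, 12.7% (5.65 to 23.5), beside 2.24% (1.504 to 3.20). Over 5 compartments the fresh fibroblast-like values were 6 of 254, 2.36% (0.872 to 5.07), and 3 of 1055, 0.284% (0.0587 to 0.829). The non-negative fit went the other way for them, with 3 of 254, 1.18% (0.244 to 3.41), beside 72 of 1055, 6.82% (5.38 to 8.52). For cryopreserved fibroblast-like barcodes the fit gave 9.52% (3.58 to 19.6) beside 5.56% (4.37 to 6.95), with intervals that overlap. Keratinocyte-like deep barcodes were mixed more often than their reference in both libraries.

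Mixed calls were frequent in the rarer classes, which hold few barcodes. Over the 5 compartments, 8 of 17 fresh and 4 of 5 cryopreserved endothelial-like deep barcodes were mixed, beside 9 of 215 and 13 of 145 reference ones. For mural-like barcodes it was 4 of 7 and 2 of 2, and for myeloid-like barcodes 2 of 12 and 6 of 12. Among keratinocyte-like deep barcodes the class panel was the highest panel in 173 of 179 fresh and 52 of 56 cryopreserved ones, as it was in 253 of 254 and 62 of 63 fibroblast-like ones, but in 5 of 12 and 6 of 12 myeloid-like ones. Names of the vascular and immune deep barcodes are therefore less certain than those of the epidermal and dermal ones.

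Over the 5 compartments, the fresh share of mixed calls was highest above 6000 genes. Of barcodes with up to 3000 genes 2.27% were mixed, then 1.33% up to 4000 and 1.83% up to 4500 genes. Beyond these, 8 of 264 barcodes with 4501 to 5000 genes were mixed, 3.03% (1.32 to 5.88), 11 of 155 with 5001 to 6000 genes, 7.10% (3.60 to 12.3), and 15 of 48 with more than 6000 genes, 31.2% (18.7 to 46.3). The 7 panels gave no such order at low gene number, with 11.8%, 8.09%, 4.59%, 4.92%, 7.74% and 33.3% over the same bins. Among cryopreserved barcodes the share was 7.86% (18 of 229) already from 4001 to 4500 genes, a bin that holds 1 deep barcode, then 23.9% (22 of 92) and 20.5% (9 of 44), and 0 of 3 above 6000 genes. The fresh barcodes that passed the UMI maximum were mixed in 28 of 221 cases over the 7 panels, 12.7% (8.59 to 17.8), and those that passed the gene maximum alone in 15 of 253, 5.93% (3.36 to 9.59). For cryopreserved barcodes the order was the other way, 4 of 22, 18.2% (5.19 to 40.3), and 31 of 118, 26.3% (18.6 to 35.2). Over the 5 compartments the same shares were 9.05% (5.62 to 13.6) and 5.53% (3.06 to 9.11) for fresh barcodes. For cryopreserved ones they were 13.6% (2.91 to 34.9) and 23.7% (16.4 to 32.4). The intervals overlap in each of these pairs.

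**Figure D4:**
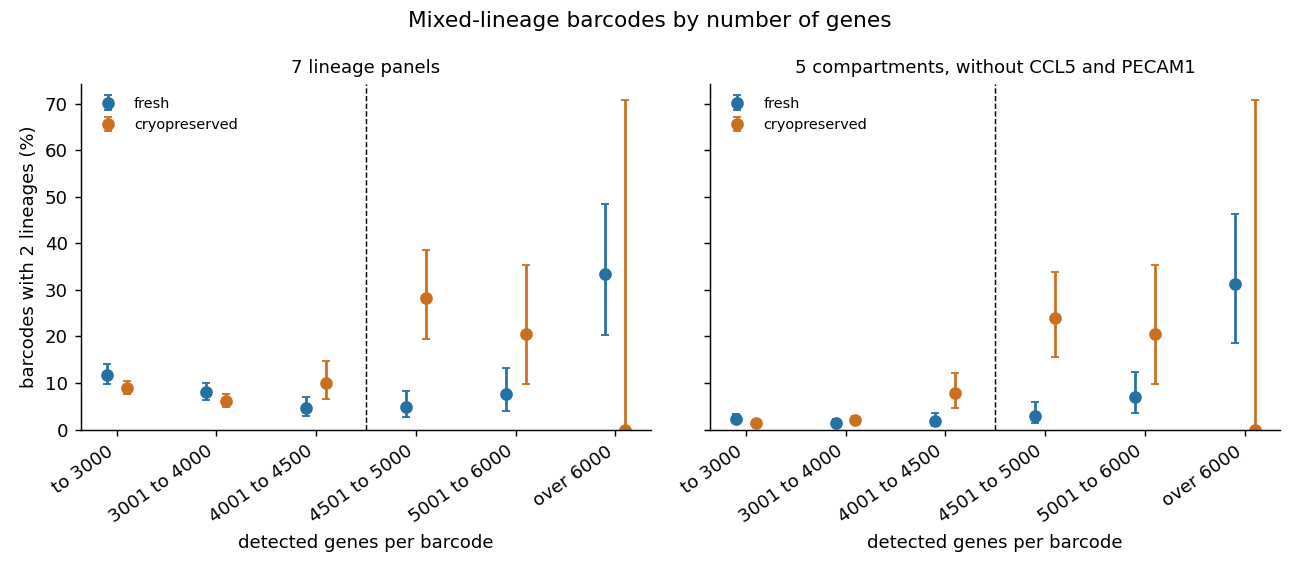
Share of barcodes called mixed by number of detected genes, for the 7 panels and for the 5 compartments, with points for each library and lines for exact binomial 95% intervals, deep and reference barcodes pooled in each bin and a dashed line at the gene maximum. Over the 5 compartments the fresh share reaches 31.2% above 6000 genes, and the cryopreserved share is 23.9% from 4501 to 5000 genes.

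Mixed deep barcodes of the fresh library held more genes than the others, a median of 5549 (4962 to 6088) beside 4875 (4830 to 4932). Their median of 32322 UMIs (29467 to 38244) beside 28825 (27911 to 29860) had intervals that overlap. Cryopreserved mixed barcodes had medians of 4778 genes and 21189 UMIs beside 4900 and 23119, with overlapping intervals for both. At equal depth, keratinocyte-like deep barcodes held slightly more genes than their reference, a median of 2103 (2080 to 2139) beside 2042 (2024 to 2056) genes at 5000 UMIs in the fresh library and 2150.5 (2104 to 2211) beside 2090 (2076 to 2098) in the cryopreserved library. Fibroblast-like ones held 1926 (1869 to 1977) beside 1972 (1961 to 1982), and 2074 (2037 to 2111) beside 1978 (1966 to 1986). At 10000 UMIs the differences were 131.5 genes in fresh and 205.5 in cryopreserved keratinocyte-like barcodes, and -3 in fresh and 211 in cryopreserved fibroblast-like ones. Fewer reference barcodes reached that depth, 424 fresh and 438 cryopreserved keratinocyte-like and 758 and 762 fibroblast-like ones. Gene number entered the rule, so these medians describe the choice.

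What the deep barcodes shared within a class was read from summed UMIs of barcodes that were not mixed. In the fibroblast-like class 246 fresh and 55 cryopreserved deep barcodes were set against 1103 and 1448 reference barcodes over 7158 genes with at least 200 UMIs in each library. Of these genes 17, or 0.237%, were at least 2-fold higher and 99, or 1.38%, at least 2-fold lower in both libraries. In the keratinocyte-like class 164 and 47 were set against 503 and 977 over 6191 genes, of which 10, or 0.162%, were higher and 4, or 0.0646%, lower. These counts rest on the minimum and the reference, as with no minimum they were 234 and 268 in the fibroblast-like and 497 and 49 in the keratinocyte-like class, and with reference barcodes of at least 3000 genes the fibroblast-like lower count was 35. At the minimum of 200 UMIs, 1 barcode held more than 10% of a group's UMIs in 93 of the 99 lower and 16 of the 17 higher fibroblast-like genes. The same held for all 10 higher and all 4 lower keratinocyte-like genes. Taken 1 library at a time, 0.433% of fresh and 1.24% of cryopreserved fibroblast-like genes were higher and 3.05% and 2.98% lower, and for the keratinocyte-like class 0.226% and 0.856% were higher and 0.178% and 1.02% lower. Values are log2 ratios of CPM, UMIs scaled to a total of 1000000, fresh first and cryopreserved second, with no test across genes. The median over all genes was -0.07 and 0.03 in the fibroblast-like class, where 42.4% and 52.7% of genes were above 0, and -0.02 in both libraries in the keratinocyte-like class, where 47.2% and 47.8% were. With TMM scaling it moved by 0.09 and -0.11, and by -0.03 and -0.11.

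Fibroblast-like deep barcodes held less RNA of the immediate early genes, transcription factors and regulators that cells switch on within minutes of stress or growth signals. All 11 measured genes of that list were lower in both libraries, beside 38.2% of all genes, with medians of -0.46 and -0.84. FOS stood at 1070 beside 2200 CPM in fresh and 904 beside 2454 in cryopreserved barcodes, with up to 14.5% of a group's UMIs in 1 barcode, at -1.04 (-1.07 to -1.01) and -1.44 (-1.52 to -1.36). JUN was at -0.78 and -0.84 and ZFP36, which encodes an RNA-binding protein that speeds mRNA decay, at -0.80 and -1.07. Heat shock genes were lower in both libraries in 7 of 10 cases, with medians of -0.27 and -0.20. In the keratinocyte-like class the immediate early list had medians of 0.05 and 0.11, of which the cryopreserved one changed sign with TMM or DESeq2 scaling. With the reference weighted to the deep barcodes' clusters and mean per-barcode CPM, both medians changed sign, to -0.09 and -0.22. Of the 11 genes 5 were higher in both libraries, beside 32.1% of all genes.

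Genes of the secretory pathway, which fold and carry collagen and other exported proteins, were higher in fibroblast-like deep barcodes. Of 24 genes, 19 were higher in both libraries, beside 33.3% of all genes, with medians of 0.29 and 0.35. SEC61B, a subunit of the channel into the endoplasmic reticulum, was at 0.44 (0.37 to 0.51) and 0.65 (0.54 to 0.76). SSR4, part of a complex beside that channel, was at 0.41 and 0.75, and KDELR3, a receptor that returns proteins to that compartment, at 0.57 and 0.55. The tRNA synthetases, which load amino acids for translation, were higher in both libraries in 14 of 16 cases with medians of 0.25 and 0.35. Of 11 glycolysis genes 8 were higher, with GAPDH at 0.51 and 0.81 but HK2, a hexokinase, at -0.78 and -0.63. Cytosolic ribosomal proteins were higher in both in 46 of 59 cases, at medians of 0.10 and 0.19.

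The matrix genes themselves differed between the libraries. Their median was 0.48 for fresh and 0.09 for cryopreserved barcodes, and the second changed sign with TMM or DESeq2 scaling. COL1A1 stood at 80186 CPM beside 48105 in fresh fibroblast-like deep barcodes, and at 58402 beside 56670 in cryopreserved ones, a log2 ratio of 0.74 (0.73 to 0.74) and 0.04 (0.03 to 0.05). FBN1, which encodes fibrillin-1 of elastic microfibrils, was higher in both, at 0.76 and 0.95. CTHRC1 was at 0.86 and -0.12. The difference between the libraries was not tested.

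By the naming rule, which passes over genes with more than 10% of a group's UMIs in 1 barcode, the fibroblast-like genes that were lowest in both libraries were led by CFD, the complement protease factor D, at 621 beside 1386 and 433 beside 1446 CPM, or -1.16 (-1.20 to -1.11) and -1.74 (-1.86 to -1.63). SULF1, an enzyme that trims heparan sulfate, was at -1.24 and -1.16, and ABCA9, a lipid transporter of the ABC family, at -1.07 and -1.60. GCH1, the entry enzyme of tetrahydrobiopterin synthesis, was at -1.23 and -1.06, and SERPING1, the inhibitor of complement C1, at -1.01 in both. ERRFI1, a brake on the EGF receptor, was at -0.93 and -1.24, RNF6 at -1.01 and -0.95, GPM6B at -1.51 and -0.93, and PRR16 at -1.20 and -0.93. With reference barcodes weighted to the cluster makeup of the deep barcodes and means of per-barcode CPM in place of sums, CFD was at -0.47 and -1.70, SERPING1 at -0.45 and -0.86, GCH1 at -0.76 and -0.86, ABCA9 at -0.69 and -1.58 and SULF1 at -1.01 and -0.77. None of the genes named in this group was 2-fold lower in both libraries under those settings.

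The highest under the same rule was PAOX, a polyamine oxidase, at 28.4 beside 12.05 and 44.0 beside 17.6 CPM, or 1.24 (0.95 to 1.53) and 1.32 (0.91 to 1.72). DUT, which removes dUTP from the nucleotide pool, was at 0.98 and 1.09. LIMD1 was at 0.92 and 0.90, ZBTB7C at 0.84 and 1.57, THBS3, a thrombospondin of the matrix, at 0.83 and 0.94, and ADGRD1 at 0.91 and 0.68. SLC27A4, a fatty acid transport protein, was at 0.84 and 0.88, RTCB, an RNA ligase, at 0.69 and 0.84, and DNAJC10, a disulfide reductase of the endoplasmic reticulum, at 0.68 and 0.73. PAOX was the only one of the 17 genes at least 2-fold higher in both libraries in which no barcode held more than 10% of a group's UMIs, the other 16 being led by COL11A1, SOX18 and LIPG. With cluster weights and mean per-barcode CPM, PAOX was at 1.22 and 0.91, the second under 2-fold, LIMD1 was at 0.38 and 0.61, ZBTB7C at 0.29 and 0.85 and ADGRD1 at 0.50 and 0.42.

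Keratinocyte-like deep barcodes held more replication RNA and less RNA of basal adhesion genes. Of 6 measured replication genes 5 were higher in both libraries, beside 32.1% of all genes, with medians of 0.70 and 1.20. PCNA stood at 77.9 beside 48.3 and 143 beside 56.3 CPM, at 0.69 (0.47 to 0.90) and 1.34 (1.08 to 1.60). TYMS, which makes dTMP, was at 1.28 (0.98 to 1.58) and 1.24 (0.86 to 1.59), MCM7 at 0.87 and 1.21, and MCM6 at 0.70 and 1.18. DTYMK, the next kinase in the same nucleotide pathway, led the genes named by rule at 0.92 (0.57 to 1.27) and 1.32 (0.88 to 1.74). With cluster weights and mean per-barcode CPM the medians of the replication list were 0.75 and 1.32.

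Of 11 basal adhesion genes, which anchor keratinocytes to the basement membrane, 10 were lower in both libraries, beside 37.1% of all genes, with medians of -0.39 and -0.54. ITGB4, the integrin of hemidesmosomes, was at -0.66 (-0.79 to -0.52) and -0.58 (-0.83 to -0.34). LAMA3 was at -0.70 and -1.06 and COL17A1, a hemidesmosomal collagen, at -0.43 and -0.70. KRT15 was at -0.48 and -0.93, while KRTDAP, a gene of differentiating keratinocytes, was at 0.65 and 0.64 and KRT5 at -0.09 and 0.18. Under those weights and means the medians of the adhesion list were -0.14 and -0.17, and ITGB4 was at -0.39 and -0.16. Desmosome genes had medians of 0.11 and -0.16, or -0.05 and -0.35 under those weights and means.

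Other keratinocyte-like genes named by rule were ENSSSCG00000031117 (0.81 and 1.33), SIVA1 (0.59 and 0.91), LSM4 (0.57 and 1.38), LYPD2 (0.57 and 0.85, or 0.21 and 0.56 with cluster weights and mean per-barcode CPM), ARL6IP5 (0.57 in both), LAMTOR1 (0.55 and 0.80) and COX17 (0.55 and 0.60), a copper chaperone of cytochrome oxidase, on the higher side. On the lower side were PER2, a gene of the circadian clock, at -0.61 and -0.81, PDE4D, a cAMP phosphodiesterase, at -0.65 and -0.56, KLF16 at -0.53 and -0.67, PARD3B at -0.52 and -0.53, PRRC2B at -0.49 and -0.52, TNS4 at -0.45 and -0.48 and RBM15 at -0.45 and -0.63. Also on that side were ENSSSCG00000018061 at -0.63 and -0.58 and ENSSSCG00000018063 at -0.55 and -0.66. Of the 4 genes at least 2-fold lower in both libraries, named here after their values were seen, FGF13 was at -1.76 and -1.82, NR3C2, the mineralocorticoid receptor, at -1.25 and -1.27, KRT3 at -1.20 and -4.91 and ENSSSCG00000046031 at -1.04 and -2.51. Each of these 4 had more than 10% of a group's UMIs in 1 barcode, and KRT3 rested on 1 UMI in the cryopreserved deep barcodes.

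**Figure D5:**
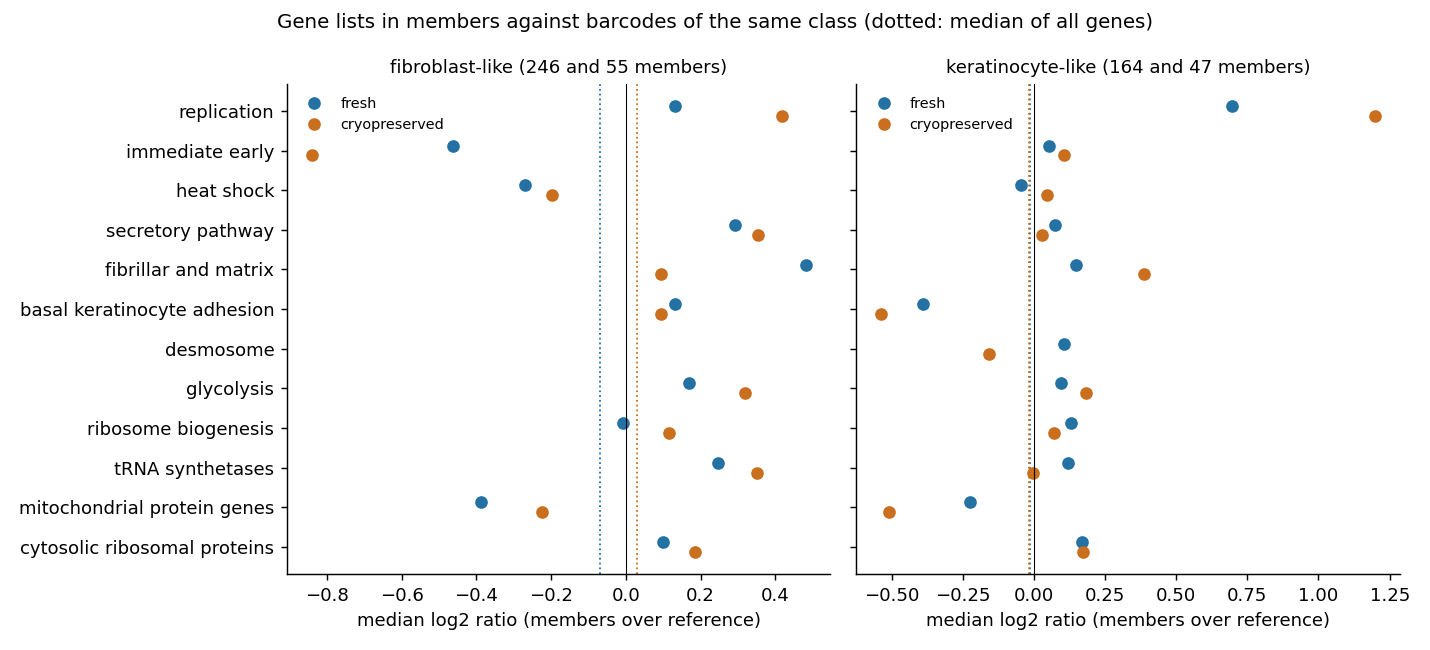
Median log2 ratio of CPM, deep over reference barcodes, for the gene lists in fibroblast-like and keratinocyte-like barcodes that were not mixed, with 1 point for each library and dotted lines at the median of all genes. The immediate early list lies at -0.46 and -0.84 in the fibroblast-like class and the replication list at 0.70 and 1.20 in the keratinocyte-like class.

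Several of the keratinocyte-like genes at least 2-fold higher in both libraries belong to another lineage. The full set was COL1A1, COL1A2, COL3A1, COL6A1, VIM, LGALS1, S100A4, APOE, DIAPH3 and TYMS. Of the 10, COL1A1, COL1A2, COL3A1, COL6A1 and VIM are genes of fibroblasts and other mesenchymal cells, and COL1A1 stood at 497 beside 73.5 CPM in the fresh library and at 977 beside 77.9 in the cryopreserved library. All 12 fibroblast-panel genes were higher in deep than in reference barcodes of this class in both libraries, and their summed level was 1363 beside 383 and 2445 beside 320 CPM. 1 barcode held 61.7% of the panel's fresh UMIs and another 79.6% of its cryopreserved UMIs. These were the printed keratinocyte-like barcodes with a higher fibroblast panel, which had 1634 and 883 COL1A1 UMIs at keratinocyte levels of 0.175 and 0.177, just under the level of 0.2 for a mixed call. The 15 myeloid-panel genes of the keratinocyte-like class summed to 56.2 beside 14.9 and 31.4 beside 25.3 CPM, with up to 49.4% in 1 barcode, and the 15 endothelial-panel genes to 24.3 beside 22.2 and 74.7 beside 26.3. Where only barcodes with a second level under 0.05 were kept, a limit chosen after seeing the data, the fibroblast-panel level was 330 beside 377 and 260 beside 294, and none of the genes was 2-fold higher in both libraries. That limit selects barcodes by the panel levels measured here, so these values describe the choice and cannot show where the differences came from.

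Fibroblast-like deep barcodes held keratinocyte RNA at a lower level. The 12 keratinocyte-panel genes summed to 157 beside 72.4 CPM in the fresh library and 274 beside 88.5 in the cryopreserved library, 9 and 10 of the 12 were higher in deep barcodes, none was at 0, and KRT5 was the most abundant. KRT5 stood at 76.0 beside 22.2 and at 130 beside 30.3, with up to 29.6% of a group's UMIs in 1 barcode. With the second level under 0.05 the panel stood at 80.3 beside 68.8 and 100 beside 69.6, again a description, since that limit selects by panel level. Thinned KRT5 UMIs were found in 13.4% (9.45 to 18.2) of fresh and 17.5% (9.05 to 29.1) of cryopreserved fibroblast-like deep barcodes, beside 10.8% and 10.3% in the reference. For these KRT5 shares alone, mixed barcodes were kept in both groups. The 10 mural-panel genes summed to 164 beside 111 and 193 beside 130 CPM. The 15 endothelial-panel genes were lower, at 51.2 beside 82.3 and 45.4 beside 62.7, with CDH5, TIE1, FLT4, ROBO4, EMCN and MMRN1 at 0 in the cryopreserved deep barcodes. The part of these other lineages in the class differences was not tested.

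The mitochondrial protein genes, which the rule limited, were lower in deep barcodes of both classes. All 12 measured ones were below 0 in both libraries in each class, beside 38.2% of all fibroblast-like and 37.1% of all keratinocyte-like genes, with medians of -0.39 and -0.23 in the fibroblast-like and -0.22 and -0.51 in the keratinocyte-like class. Their share of UMIs had a median of 2.83% in fresh and 2.55% in cryopreserved deep barcodes, beside 3.50% and 3.46% in reference barcodes. These values are a description, since the share entered the rule.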

How the data were processed

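Counts of UMIs per gene and barcode from both libraries were used as the authors deposited them, which the submitters' processing notes credit to Cell Ranger 4.0.0 and STAR 2.5.1b on Sscrofa11.1. The file lists 31908 features, of which 16719 had a symbol in the file and 782 took one from a reference table. The members, panels and gene lists were chosen with earlier results of these data known. Doublets were not called, and each depth or mitochondrial limit is given in the report. Reference barcodes were normalized to 10000 UMIs, reduced to 30 principal components of 2000 variable genes and clustered at resolution 1 (Scanpy 1.11.5), and clusters with at least 3 raised markers of 1 type were named. Of the 25 clusters 2 stayed unnamed. The fibroblast-like cluster with WIF1 had HBB among its leading genes, where 2 barcodes held over 100 HBB UMIs and 74.3% of barcodes held any, and its class was kept.

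Panel levels, mixed calls and shares used counts thinned to 5000 UMIs. Within a class, ratios came from summed counts scaled to a total of 1000000 (CPM), over genes with at least 200 UMIs in each library. Named genes were the 10 highest and 10 lowest by the ratio nearer to 0 of both libraries, with no barcode over 10% of a group's UMIs, plus the panels and lists. TMM factors came from edgeR 4.0.16 and size factors from DESeq2 1.42.0. Binomial intervals are exact (Clopper-Pearson), level intervals are Poisson and median intervals come from order statistics, all at 95%. Calculations were tested on simulated data. No comparison had a statistical test, since each condition had 1 library.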

Additional observations from a re-analysis of the deposited data

Results flagged for a closer look

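Some values lay on opposite sides of 0 in the 2 libraries, each with 1 library per condition, and the differences between libraries were not tested. At 5000 UMIs the median gene number of fibroblast-like deep barcodes minus that of reference barcodes was -46 for fresh and 96 for cryopreserved cells. The intervals of the fresh medians overlapped, 1869 to 1977 beside 1961 to 1982, and at 10000 UMIs the differences were -3 and 211. In keratinocyte-like deep barcodes the heat shock list had a median log2 ratio of -0.045 (fresh) and 0.046 (cryopreserved), the desmosome list 0.11 and -0.16, and the tRNA synthetase list 0.12 and -0.0031. In fibroblast-like deep barcodes the ribosome biogenesis list had medians of -0.0084 and 0.12. No list kept opposite sides under every setting. With TMM scaling the heat shock medians were -0.073 and -0.060 and the ribosome biogenesis medians 0.079 and 0.0073, and with DESeq2 size factors they were -0.083 and -0.071, and 0.093 and 0.011. With cluster weights and mean per-barcode CPM, the desmosome medians were -0.053 and -0.35 and the tRNA synthetase medians 0.15 and 0.088.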

How the results depend on the processing

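Of 112 recomputed values 75 stayed within their limits and 37 moved. A division limit over 16 genes left 174 fresh and 59 cryopreserved members, and the UMI maximum alone left 221 and 22. The keratinocyte-like and fibroblast-like shares moved under no alternative run, and those of other classes were not recomputed. The cryopreserved difference in mixed share was 8.15 points with a level of 0.3 and 4.99 with 0.5, and the fresh one was 5.37 over 5 compartments. The fresh difference lay between -0.634 and 2.58 points under the other settings, on both sides of 0. Thinned to 10000 UMIs, the difference in genes was 131.5 (fresh) and 205.5 (cryopreserved) for keratinocyte-like and 211 for cryopreserved fibroblast-like barcodes, and the last was 32 at 2000 UMIs.

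Counts of genes at least 2-fold apart in both libraries rested on the filter and on the reference. Keratinocyte-like higher genes numbered 71 with at least 50 UMIs, 497 with no minimum, 37 with mixed barcodes kept and 0 with a second level under 0.05, and lower genes 10 and 49 with those minimums and 2 with reference barcodes of at least 3000 genes or with cluster weights and mean per-barcode values. Fibroblast-like higher genes numbered 50, 234, 10 with a second level under 0.05, 27 with mean per-barcode values and 11 with these and cluster weights, and lower genes 199, 268, 35 with reference barcodes of at least 3000 genes, 167 with mean per-barcode values and 35 with these and cluster weights. Unthinned, 97.9% of fresh and 99.3% of cryopreserved members held a division gene outside the rule, beside 80.2% and 72.5% of the shallower reference barcodes. A replication gene was held by 92.4% and 93.6%, beside 67.4% and 64.0%. At 10000 UMIs the division shares were 81.0% and 88.6%, beside 79.9% and 82.2%. The replication shares at that depth were 68.8% and 70.7%, beside 67.2% and 69.8%. The 5 compartments, the level of 0.05 and the cluster weights were chosen after seeing the data.

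No paired analysis was possible because each condition had 1 library, and leaving out a replicate was not possible. Animal, library and freezing cannot be told apart. The 7-panel and 5-compartment calls miss barcodes in which 1 lineage gives a small part of the RNA, and cells of the same lineage caught together are not seen by them.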
